A study of Mus musculus with 6 samples.

Results

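The interleukin-1 family and its receptors were followed in whole uteri of pregnant mice through 10 genes chosen by name. They were the ligand genes *Il1a*, *Il1b*, *Il18* and *Il33*, the receptor antagonist gene *Il1rn*, and the receptor genes *Il1r1*, *Il1r2*, *Il1rap*, *Il1rl1* and *Il18r1*. All 10 were found among the 56748 genes of the deposited tables, and 9 of them passed the filter on low counts, as did 16605 genes in all. *Il1a* did not pass it and is described from its counts. Poly(A) RNA of 3 control and 3 *Gp130* ecKO uteri was sequenced at 1600 h on day 4 of pregnancy, shortly before the embryo attaches. *Gp130* ecKO females were sexually mature Ltf iCre/+; Gp130 flox/flox mice, in which the recombinase, driven by the lactoferrin gene, deletes Gp130 (*Il6st*, the shared signal-transducing receptor chain of LIF and other interleukin-6 type cytokines) in the uterine epithelium. Controls are labelled WT, and the methods of the study allow either wildtype or Ltf +/+; Gp130 flox/flox females without the recombinase. All are labelled C57BL/6 (the methods of the study give C57BL/6J), and all had been mated with fertile wildtype males. The lactoferrin gene is also active in neutrophils and some macrophages, so the deletion may not be limited to epithelium. The RNA came from the whole uterus, so that muscle, stroma, vessels and immune cells contribute to every value. The labels do not say whether the 3 uteri of a group came from separate mice, and p-values measure the spread between these samples.

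Interleukin-1 alpha and interleukin-1 beta are inflammatory cytokines that bind the same receptor, encoded by *Il1r1*, which signals only once the accessory chain encoded by *Il1rap* has joined it. *Il1r2* encodes a decoy receptor that binds the ligand without signalling, and *Il1rn* encodes an antagonist that occupies the receptor. Interleukin-18 and interleukin-33 are relatives with receptors of their own, encoded by *Il18r1* and *Il1rl1* (ST2), and the interleukin-33 receptor uses the same accessory chain. Interleukin-1 beta and interleukin-18 are made as precursors that caspase-1 cuts inside inflammasomes. In the uterus, interleukin-1 is best known as a cytokine exchanged between embryo, epithelium and stroma around implantation.

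The libraries held between 13960748 (control 3) and 25906443 (control 2) expected counts. *Il6st* itself lay at 631, 678 and 452 CPM (counts scaled to a common library size with TMM factors) in control 1, 2 and 3 and at 388, 350 and 362 in *Gp130* ecKO. Its fold change was -0.68 on the log2 scale (SE 0.21), and the groups did not overlap (edgeR quasi-likelihood test, adjusted p = 0.120). Control 2 stood apart in what it did to the test: 26 genes passed the threshold with all 6 uteri and 897 without it. Where leaving out a uterus changed the call of a member or pathway gene, the value without it is given too. Of 6 uterine genes checked (*Hoxa10*, *Hoxa11*, *Pgr*, *Esr1*, *Foxa2*, *Wnt7a*), all 6 passed the filter.

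No member passed the threshold of the main test (edgeR quasi-likelihood, adjusted p under 0.05 and more than 2-fold), which 0.157% of all tested genes passed (0.126% higher and 0.0301% lower). At an unadjusted p under 0.05 there were 4 of 9, with *Il1rap* higher in *Gp130* ecKO and *Il1r2*, *Il33* and *Il1rn* lower, beside 25.0% of all tested genes (12.1% higher and 12.9% lower). The same 4 genes did not overlap between the groups, against 31.3% of all tested genes (15.7% higher and 15.6% lower). Of the 4, *Il1rn* entered the test mainly through the control group, in which it was higher. Other tools called 3 members, *Il1rap* higher and *Il1r2* and *Il33* lower, both in the edgeR exact test, where 7.46% of all genes were called (3.73% higher and 3.73% lower), and in DESeq2, where 9.34% were called (4.43% higher and 4.91% lower). The median log2 fold change of the 9 tested members was -0.81, beside -0.05 over all tested genes. Of the 9, 7 lay below 0, beside 8781 of all 16605 tested genes. The median leaves out *Il1a*, whose counts were also lower in *Gp130* ecKO.

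**Figure D1:**
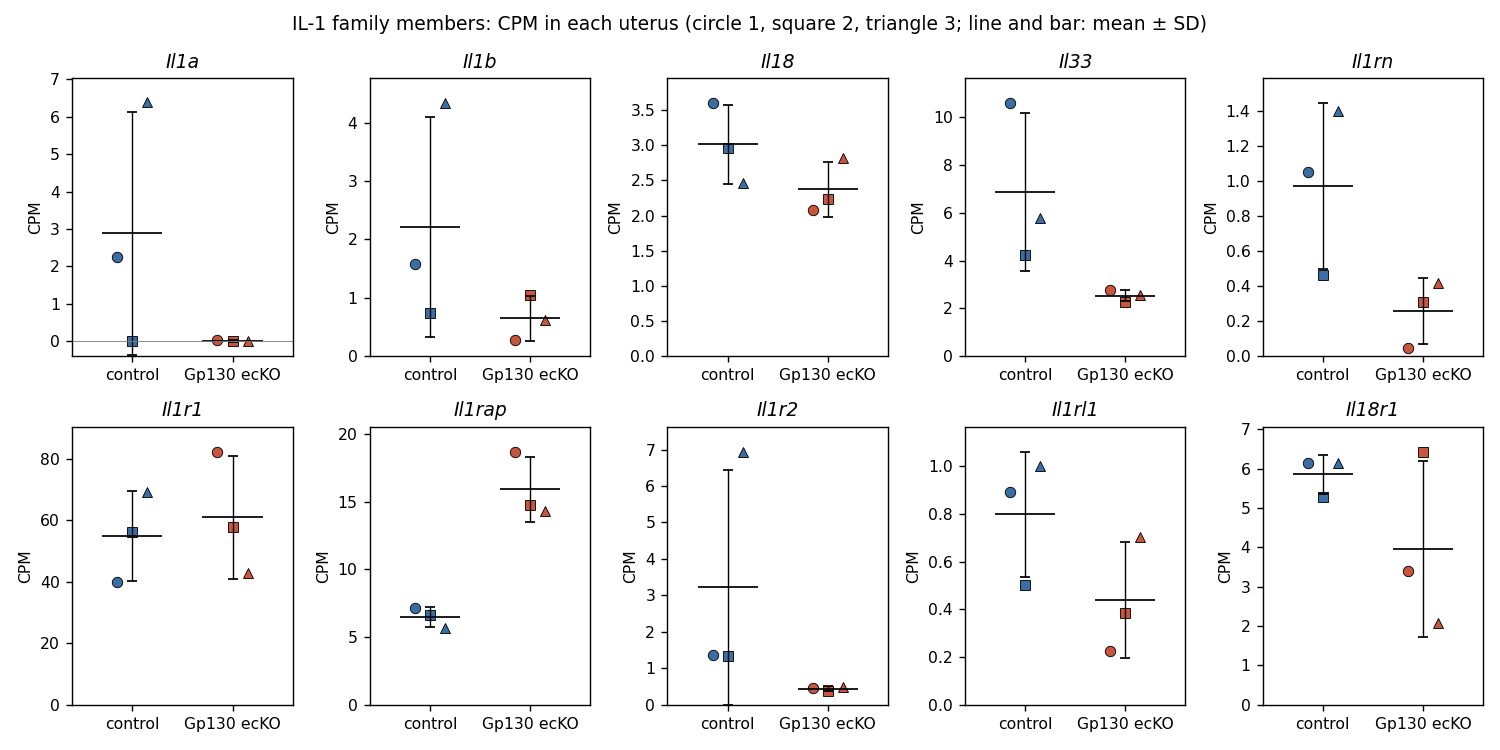
CPM of each of the 10 members in each uterus, with control in blue and *Gp130* ecKO in red, circles, squares and triangles for replicates 1, 2 and 3, and the mean ± SD of 3 uteri as a line and bar (linear axes that differ between genes). *Il1rap* lies higher in all 3 *Gp130* ecKO uteri, *Il1r2*, *Il33* and *Il1rn* lie lower, and *Il1a* is high in control 1 and 3 only.

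The stretch just upstream of the start site is printed for the member with the largest ratio of counts between the groups, *Il1a*, and for the 4 genes whose groups did not overlap, since these carry the differences described here. Each run holds the 250 bases before the start of the gene's reference transcript, 5′ to 3′ on the gene's own strand, read from GRCm39 with the GENCODE M39 annotation, and none of the 5 windows overlaps an annotated exon. They lie at chr2:129152099-129152348, minus strand (*Il1a*), at chr1:40123608-40123857, plus strand (*Il1r2*), at chr19:29902233-29902482, plus strand (*Il33*), at chr2:24226615-24226864, plus strand (*Il1rn*) and at chr16:26400100-26400349, plus strand (*Il1rap*). Capitals mark a match to an AP-1 type motif (TGANTCA), which is present in the *Il1rn* window only.
*Il1a*: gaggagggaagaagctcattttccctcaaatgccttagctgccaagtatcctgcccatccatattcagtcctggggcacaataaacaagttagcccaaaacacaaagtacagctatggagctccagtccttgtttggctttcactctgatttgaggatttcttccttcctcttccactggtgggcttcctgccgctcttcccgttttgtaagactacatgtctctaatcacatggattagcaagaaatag
*Il1r2*: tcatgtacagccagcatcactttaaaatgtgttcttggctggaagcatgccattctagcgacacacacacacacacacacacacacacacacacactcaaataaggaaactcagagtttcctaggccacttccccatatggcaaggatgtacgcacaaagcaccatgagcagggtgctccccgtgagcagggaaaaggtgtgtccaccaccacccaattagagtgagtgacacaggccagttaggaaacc
*Il33*: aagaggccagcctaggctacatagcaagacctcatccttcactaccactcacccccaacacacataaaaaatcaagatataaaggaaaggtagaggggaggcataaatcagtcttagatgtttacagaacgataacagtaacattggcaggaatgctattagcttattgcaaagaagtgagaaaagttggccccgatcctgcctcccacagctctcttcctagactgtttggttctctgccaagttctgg
*Il1rn*: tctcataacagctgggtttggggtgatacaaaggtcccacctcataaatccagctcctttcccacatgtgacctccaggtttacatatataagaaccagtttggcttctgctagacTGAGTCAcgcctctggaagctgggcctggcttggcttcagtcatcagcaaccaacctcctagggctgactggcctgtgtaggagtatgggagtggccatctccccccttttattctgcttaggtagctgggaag
*Il1rap*: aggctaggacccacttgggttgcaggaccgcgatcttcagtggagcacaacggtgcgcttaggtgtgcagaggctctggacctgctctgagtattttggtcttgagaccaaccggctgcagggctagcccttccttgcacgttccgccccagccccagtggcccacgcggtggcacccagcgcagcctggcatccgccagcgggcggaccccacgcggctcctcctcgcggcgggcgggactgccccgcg

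Both strands were searched for 4 motifs. A STAT type motif (TTCNNNGAA) was in none of these 5 windows and in 7.70% of the 21770 windows of the same length. The AP-1 type motif was in *Il1rn*, 134 to 128 bases before the start, and in 6.17% of all windows. An NF-kB motif, searched by its consensus, was in none of the 5 and in 4.23% of all. The TATAAA motif was in *Il33*, 173 to 168 bases before the start, and in 11.9% of all. Among the windows of the other 5 members, which are not printed, that of *Il18r1* held 2 STAT type matches, that of *Il1r1* an NF-kB match and that of *Il1b* the TATAAA motif, 31 to 26 bases before the start. The windows also differed in base composition. *Il1rap*, the one member that was higher in *Gp130* ecKO without overlap, had 68.4% G and C, above the upper quartile of 60.8% over all windows. The 4 genes on the lower side had 44.8% (*Il33*), 46.0% (*Il1a*), 50.0% (*Il1r2*) and 51.6% (*Il1rn*), beside a median of 53.2%. The other 5 members had 61.6% (*Il18r1*), 60.4% (*Il1r1*), 46.4% (*Il1rl1* and *Il18*) and 44.4% (*Il1b*). *Il18r1* was thus also above the upper quartile, with a log2 fold change of -0.56. These are descriptions of letters, and no binding was measured.

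*Il1a* (ENSMUSG00000027399, chr2:129140291-129152098, minus strand), which encodes a cytokine held in epithelial and other cells and active without caspase cleavage, was nearly confined to 2 uteri. It had 56.1 expected counts in control 1, none in control 2 and 96.4 in control 3, against 1, 0 and 0 in *Gp130* ecKO 1, 2 and 3. That is 2.27, 0 and 6.40 CPM against 0.045, 0 and 0. The groups overlap through control 2 alone, in which 0 counts allows up to 3 at that depth. Over the groups, 152 rounded counts stood against 1, a ratio of 167 after scaling for depth (exact 95% interval 29.6 to 6650, counting error only), and leaving out control 1, 2 or 3 gave 169, 276 and 79.9. Fitted without the filter, *Il1a* had an adjusted p of 0.117 in the quasi-likelihood test and of 0.0379 in the edgeR exact test, in which 3.25% of 29916 genes were called (1.81% higher and 1.43% lower). *Il1a* passed the filter once control 2 or any *Gp130* ecKO uterus was left out, and in those filtered fits the quasi-likelihood test gave 0.0181 without control 2 and 0.181 to 0.312 without a *Gp130* ecKO uterus. These fits differ from the one without the filter in both the filter and the samples, and the gene entered the fit without control 2 through the controls in which it was high. An exact two-sided permutation test of the 6 log2(CPM + 0.5) values gave p = 0.4, and the smallest p that 3 against 3 allows is 0.1. An antisense gene, *Gm14023*, shares 6.16% of the 75-base stretches of *Il1a* on the opposite strand and had a log2 fold change of 0.24 (adjusted p = 0.768, quasi-likelihood test), and whether counting used strand is not given in the sources used here.

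*Il1b* (ENSMUSG00000027398, chr2:129206490-129213059, minus strand), the secreted, caspase-1 dependent cytokine, stood at 1.58, 0.73 and 4.33 CPM in control 1, 2 and 3 and at 0.27, 1.04 and 0.62 in *Gp130* ecKO 1, 2 and 3. Control 2 again held the lowest control value and lay below *Gp130* ecKO 2, so the groups overlap. *Il1b* had a log2 fold change of -1.69 (SE 0.75, 95% interval -3.45 to 0.08, adjusted p = 0.215 in the quasi-likelihood test). Without control 3, the highest uterus, it was -0.82, and without control 2 it was -2.08, with adjusted p-values of 0.512 and 0.115. Both genes thus had their order among controls in common, with control 3 highest and control 2 lowest. The TPM of *Il1a* and *Il1b* together (a level scaled by library size and transcript length) was 3.17, 0.78 and 9.38 in control and 0.32, 1.75 and 0.60 in *Gp130* ecKO, and these sums overlap.

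The tested genes with the pattern most like that of *Il1a* over the 6 uteri, by the root mean square difference of centred log2(CPM + 0.5), were *Lrrc8b* (0.311), *Tnfrsf12a* (0.413), *Pkib* (0.455), *Clcf1* (0.464) and *Mdfi* (0.473). *Lrrc8b*, a subunit gene of volume-regulated anion channels, stood at 62.1, 10.4 and 86.6 CPM in control and at 9.77, 10.2 and 7.01 in *Gp130* ecKO. Control 2 was thus at the level of *Gp130* ecKO in this far more abundant gene too. *Pkib*, an inhibitor of protein kinase A, showed the same, with 51.0, 4.59 and 77.9 CPM in control and 5.70, 2.96 and 3.44 in *Gp130* ecKO. For *Il1b* the nearest were *Wdhd1* (0.122), *Hells* (0.128), *Igflr1* (0.128), *Dok3* (0.130) and *Dna2* (0.137), of which *Wdhd1*, *Hells* and *Dna2* act in DNA replication or chromatin. *Hells* had 23.6, 11.2 and 46.3 CPM in control and 8.27, 14.1 and 10.1 in *Gp130* ecKO. All 10 were picked for their likeness, so their values are descriptions.

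*Il33* (ENSMUSG00000024810, chr19:29902483-29938933, plus strand) encodes a nuclear cytokine that damaged barrier and stromal cells release. It stood at 10.6, 4.24 and 5.80 CPM in control 1, 2 and 3 and at 2.76, 2.27 and 2.57 in *Gp130* ecKO. All 3 *Gp130* ecKO values lay below the lowest control, close together, while the control values were spread. The adjusted p of *Il33* was 0.108 in the quasi-likelihood test, 0.0444 in the edgeR exact test (0.102 without the filter) and 0.0165 in DESeq2. The log2 fold change of *Il33* was -1.44 (SE 0.41, 95% interval -2.40 to -0.49). Control 1 carried part of its size, as it was -0.95 without that uterus. The endothelial marker list was also lower in *Gp130* ecKO. Of its 6 genes, 5 were lower at an unadjusted p under 0.05 and none higher, beside 12.9% and 12.1% of all tested genes. The list's summed TPM was 342 to 544 in control and 120 to 220 in *Gp130* ecKO. Of 8 stromal markers, 4 were lower at that p, with sums of 1254 to 1631 and 833 to 1011 TPM. Neither list had a gene at 0. Within *Gp130* ecKO the endothelial sums ran in the opposite order to *Il33*, and within control the stromal sums did. Control 1 held both the highest endothelial sum and the highest *Il33* value. The part of endothelial and stromal RNA in the *Il33* values was not tested. In whole uteri, fewer cells of a type cannot be told apart from less RNA per cell.

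*Il18* (ENSMUSG00000039217, chr9:50466081-50493633, plus strand), the other caspase-1 substrate and largely an epithelial and macrophage product, stood at 3.60, 2.97 and 2.47 CPM in control and at 2.08, 2.23 and 2.82 in *Gp130* ecKO. The groups overlap, with a log2 fold change of -0.35 (SE 0.33, 95% interval -1.12 to 0.42, adjusted p = 0.527 in the quasi-likelihood test), and of -0.18 without control 1 and -0.47 without control 3. Of the 75-base stretches of its annotated transcripts, 2.87% also occur on the same strand of other genes, the only member above 0.

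*Il1rn* (ENSMUSG00000026981, chr2:24226865-24241506, plus strand), the antagonist gene, was low everywhere, at 26, 12 and 21 counts in control and 1, 8 and 10 in *Gp130* ecKO. In CPM these were 1.05, 0.46 and 1.40 against 0.045, 0.31 and 0.41. The groups do not overlap, though control 2 and *Gp130* ecKO 3 are near neighbours. The gene passed the filter on low counts mainly through the control group, so a difference was partly built into its entry to the test. *Il1rn* had a log2 fold change of -1.82 (SE 0.69, 95% interval -3.45 to -0.20), with p = 0.033 before and 0.166 after adjustment in the quasi-likelihood test, and 0.115 adjusted in the edgeR exact test. The TPM of *Il1rn* over that of *Il1a* and *Il1b* together was 0.24, 0.68 and 0.14 in control and 0.31, 0.16 and 0.48 in *Gp130* ecKO, which overlap.

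Among the receptors of interleukin-1 itself, the signalling chain did not differ beyond its spread, the decoy was lower and the accessory chain higher in every *Gp130* ecKO uterus. *Il1r1* (ENSMUSG00000026072, chr1:40264174-40356417, plus strand) stood at 39.8, 56.0 and 69.1 CPM in control and at 82.2, 57.7 and 42.8 in *Gp130* ecKO. The spread within each group was wider than the distance between them, and the log2 fold change was 0.15 (SE 0.29, 95% interval -0.54 to 0.83, adjusted p = 0.771 in the quasi-likelihood test). Its sign turned without control 1 (-0.01) and without *Gp130* ecKO 1 (-0.12), and a 2-fold change either way lies outside the interval. The summed TPM of 6 smooth muscle markers was 2008, 1475 and 414 in control and 361, 736 and 2310 in *Gp130* ecKO. Within each group these sums ran in the opposite order to *Il1r1*. The part of muscle RNA in the *Il1r1* values was not tested.

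*Il1r2* (ENSMUSG00000026073, chr1:40113239-40164391, plus strand), the decoy, had 34, 35 and 104 counts in control and 10, 10 and 12 in *Gp130* ecKO. This gave 1.37, 1.35 and 6.93 CPM against 0.45, 0.38 and 0.50. The 3 *Gp130* ecKO uteri lay close together below every control, and control 3 lay far above the other two. The log2 fold change was -2.79 (SE 0.79, 95% interval -4.64 to -0.93), with an adjusted p of 0.110 in the quasi-likelihood test, of 0.0151 in the edgeR exact test and of 0.00658 in DESeq2. It was -1.61 without control 3, with an adjusted p of 0.169 in the quasi-likelihood test. Neutrophils carry much decoy receptor. Of 9 neutrophil markers 5 passed the filter, and 3 of these (*S100a8*, *S100a9*, *Retnlg*) were lower at an unadjusted p under 0.05. Of all tested genes, 12.9% were lower at that p. The 9 markers had summed TPM of 8.41 to 19.8 in control and 2.42 to 9.58 in *Gp130* ecKO, which overlap. *Ngp* was at 0 in every uterus, and *Camp* and *Mmp8* had 1 count each in all. Control 3, where *Il1r2* was highest, had the lowest neutrophil sum of the controls, below those of *Gp130* ecKO 2 and 3. The part of these cells in the *Il1r2* values was not tested. RSEM gave *Il1r2* a weighted transcript length of 1054 bases in all 3 *Gp130* ecKO uteri, the length of an annotated nonsense-mediated decay transcript (chr1:40123952-40164379), and of 1118, 1030 and 1130 in control. The order of uteri within a group differs slightly between TPM and CPM, and on both scales every *Gp130* ecKO uterus lay below every control.

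*Il1rap* (ENSMUSG00000022514, chr16:26400350-26548880, plus strand), the accessory chain shared by the interleukin-1 and interleukin-33 receptors, stood at 7.12, 6.59 and 5.67 CPM in control and at 18.7, 14.7 and 14.3 in *Gp130* ecKO. Every *Gp130* ecKO uterus had more than every control, with tight values in both groups. *Gp130* ecKO was 2.46-fold higher (SE 0.24 and 95% interval 0.73 to 1.86, both on the log2 scale), with p = 0.000896 before and 0.0667 after adjustment in the quasi-likelihood test, and with adjusted p-values of 0.00428 in the edgeR exact test and 2.46e-05 in DESeq2. Leaving out any 1 uterus kept the log2 fold change between 1.17 and 1.40. The summed epithelial markers were also higher in *Gp130* ecKO. Of 8 genes, 3 (*Krt19*, *Krt8*, *Cdh1*) were higher at an unadjusted p under 0.05 and none lower, beside 12.1% and 12.9% of all tested genes. The summed TPM of the 8 was 1948 to 3521 in control and 4685 to 6812 in *Gp130* ecKO, with no gene at 0. *Epcam*, in the same list, had a log2 fold change of -0.19 (adjusted p = 0.678, quasi-likelihood test). The study reported stronger KRT8 and CDH1 staining in the epithelium of *Gp130* ecKO, so *Krt8* and *Cdh1* may not measure the amount of epithelium alone. The part of epithelial RNA in the *Il1rap* values was not tested. *Il1rap* shares 7.41% of its 75-base stretches with the antisense gene *Gm20319*.

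**Figure D2:**
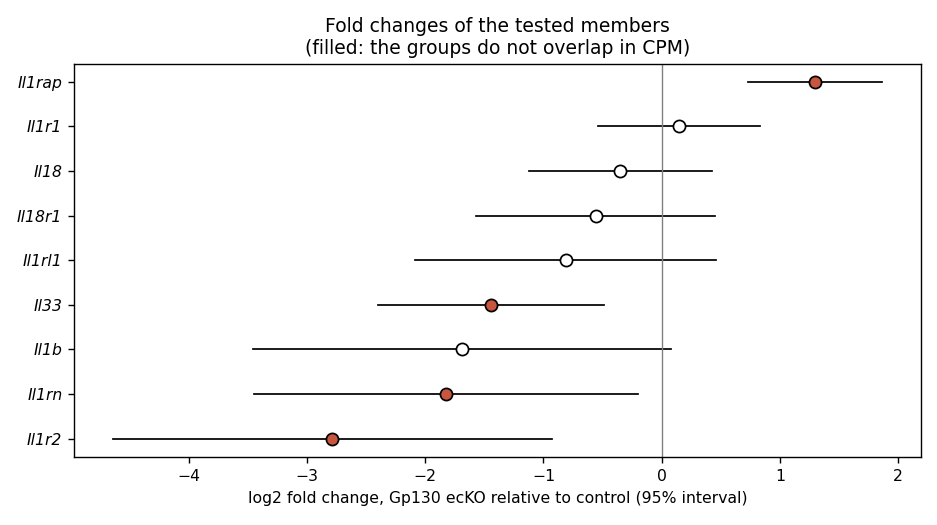
Log2 fold change of *Gp130* ecKO relative to control for the 9 tested members (points) with the 95% interval of the edgeR quasi-likelihood fit (lines), filled where the 2 groups do not overlap in CPM. The interval lies above 0 for *Il1rap*, from 0.73 to 1.86, and below 0 for *Il1r2*, *Il1rn* and *Il33*, while the other 5 cross 0.

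The receptor genes were also set against one another within each uterus. The TPM of *Il1r1* over that of *Il1r2* was 6.15, 8.36 and 2.22 in control and 37.9, 31.2 and 18.0 in *Gp130* ecKO. The TPM of *Il1rap* over that of *Il1r1* was 0.21, 0.13 and 0.093 in control and 0.27, 0.28 and 0.36 in *Gp130* ecKO. Neither ratio overlaps between the groups. Both follow from the genes' own values and are descriptions.

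**Figure D3:**
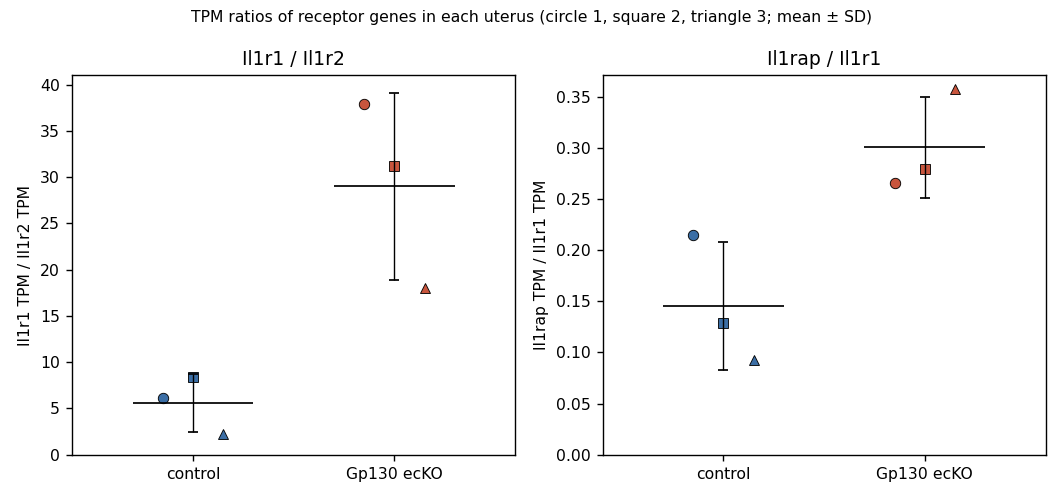
TPM ratios in each uterus, *Il1r1* over *Il1r2* on the left and *Il1rap* over *Il1r1* on the right, with control in blue, *Gp130* ecKO in red and the mean ± SD of 3 uteri as a line and bar. The lowest *Gp130* ecKO ratio (18.0 and 0.27) lies above the highest control ratio (8.36 and 0.21) in both panels.

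*Il1rl1* (ENSMUSG00000026069, chr1:40468730-40504575, plus strand), the interleukin-33 receptor, was near the limit of detection, at 22, 13 and 15 counts in control and 5, 10 and 17 in *Gp130* ecKO. In CPM these were 0.89, 0.50 and 1.00 against 0.23, 0.38 and 0.70, which overlap. The log2 fold change was -0.81 (SE 0.54, 95% interval -2.09 to 0.46, adjusted p = 0.379 in the quasi-likelihood test). It was -1.29 without *Gp130* ecKO 3 and -0.51 without *Gp130* ecKO 1. Mast cells carry this receptor, and their 8 markers summed to 42.6 to 65.7 TPM in control and 11.5 to 29.8 in *Gp130* ecKO. None was at 0 in all uteri, though 2 had at most 3 counts in each uterus. Of the 5 that passed the filter, 3 were lower at an unadjusted p under 0.05, beside 12.9% of all tested genes. The 8 markers of T and innate lymphoid cells summed to 8.72 to 12.2 TPM in control and 4.28 to 15.3 in *Gp130* ecKO, which overlap. The part of any of these cells in the *Il1rl1* values was not tested. *Il18r1* (ENSMUSG00000026070, chr1:40504712-40540014, plus strand) stood at 6.15, 5.28 and 6.13 CPM in control and at 3.39, 6.42 and 2.07 in *Gp130* ecKO. Here *Gp130* ecKO 2 was the highest of all 6 uteri and *Gp130* ecKO 3 the lowest, and the log2 fold change was -0.56 (SE 0.43, 95% interval -1.57 to 0.45, adjusted p = 0.443 in the quasi-likelihood test). It was -1.09 without *Gp130* ecKO 2 and -0.22 without *Gp130* ecKO 3.

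How many members were apart moved with the uteri counted. Of the 9 tested members, 4 did not overlap with all 6 uteri. Leaving out 1 uterus gave 4 (control 1), 6 (control 2), 5 (control 3), 4 (*Gp130* ecKO 1), 6 (*Gp130* ecKO 2) and 6 (*Gp130* ecKO 3), beside 39.2%, 45.6%, 40.1%, 36.5%, 42.2% and 45.9% of all tested genes in the same order. *Il1rap* on the higher side and *Il1r2*, *Il33* and *Il1rn* on the lower side were apart in each of these counts. *Il1b* joined them without control 2 or *Gp130* ecKO 2, *Il1rl1* without control 2 or *Gp130* ecKO 3, *Il18* without control 3 or *Gp130* ecKO 3, and *Il18r1* without *Gp130* ecKO 2. Without control 2, 5 members were lower, beside 22.9% of all tested genes, and *Il1a*, which is not among the 9, did not overlap then either.

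**Figure D4:**
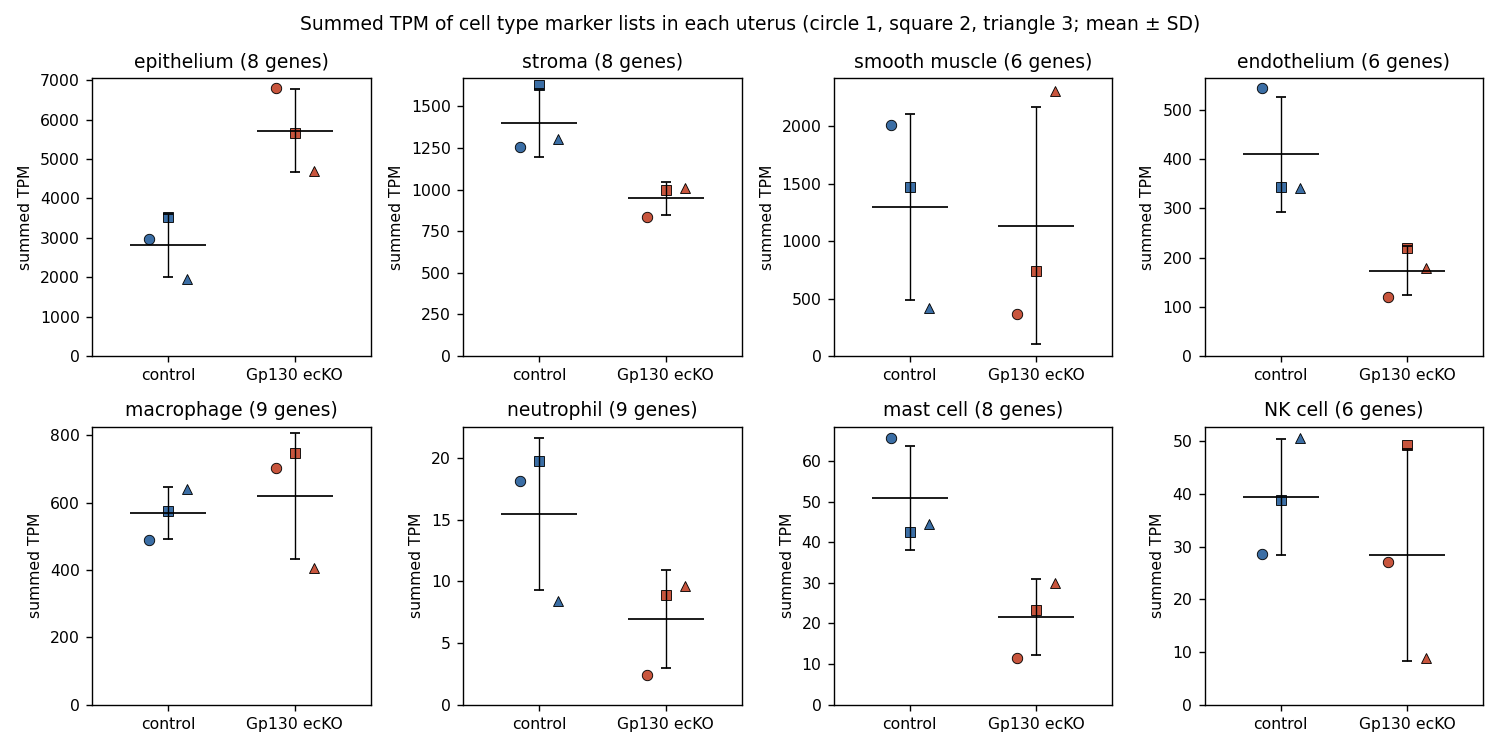
Summed TPM of 8 lists of cell type markers in each uterus, with control in blue, *Gp130* ecKO in red and the mean ± SD of 3 uteri as a line and bar. The epithelial sum lies higher in *Gp130* ecKO (4685 to 6812 against 1948 to 3521) and the stromal, endothelial and mast cell sums lie lower, while the macrophage (491 to 642 against 407 to 749), smooth muscle, neutrophil and NK cell sums overlap.

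Per length, *Il1r1* was the most abundant member in control uteri, at 15.2 ± 5.14 TPM (SD, n = 3). *Il18* (5.43 ± 0.21), *Il1r2* (4.19 ± 4.27), *Il33* (3.60 ± 1.56), *Il18r1* (2.82 ± 0.17), *Il1b* (2.39 ± 2.04), *Il1a* (2.05 ± 2.40) and *Il1rap* (2.00 ± 0.13) followed, then *Il1rn* (0.87 ± 0.41) and *Il1rl1* (0.24 ± 0.13). Neighbours in this order overlapped between uteri except *Il1r1* and *Il18*, *Il1rap* and *Il1rn*, and *Il1rn* and *Il1rl1*. In *Gp130* ecKO, *Il1r1* (18.0 ± 6.47 TPM) was still first and *Il1rap* came next at 5.21 ± 1.20, overlapping *Il18* at 4.41 ± 0.53, while *Il1r2* stood at 0.62 ± 0.03.

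Of 11 further family genes, 5 passed the filter, and none of these 5 reached an unadjusted p under 0.05 in the quasi-likelihood test, beside 25.0% of all tested genes. *Il36g*, which encodes an epithelial interleukin-36 ligand, resembled *Il1a*, with 74, 0 and 30 counts in control 1, 2 and 3 and none in any *Gp130* ecKO uterus. Against a floor of 3 counts over the group it was at least 38.2-fold lower, and at least 17.7-fold, 63.1-fold and 35.2-fold lower without control 1, 2 or 3. Without the filter its adjusted p was 0.165 in the quasi-likelihood test (0.0108 unadjusted) and 0.0264 in the edgeR exact test. With the filter, which it passed once control 2 or a *Gp130* ecKO uterus was left out, the quasi-likelihood test gave 0.0297 without control 2 and 0.227 to 0.311 without a *Gp130* ecKO uterus. Like *Il1a*, it entered these fits through the controls in which it was high. *Il1rl2*, its receptor, stood at 9.83, 12.5 and 22.7 CPM in control and at 8.14, 12.7 and 18.2 in *Gp130* ecKO, with a log2 fold change of -0.20 (95% interval -1.16 to 0.75) whose sign turned without control 3 (0.21) and without *Gp130* ecKO 1 (0.05).

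Of 16 genes that process interleukin-1, 13 were tested, none passed the threshold in the quasi-likelihood test, and at an unadjusted p under 0.05 there were 2 higher and 2 lower, a share of the list near the 25.0% of all tested genes at that p. *Capn1*, a calpain subunit gene, stood at 126, 227 and 81.6 CPM in control and at 481, 376 and 308 in *Gp130* ecKO (1.42 on the log2 scale, adjusted p = 0.0980 in the quasi-likelihood test). Without control 2 it was called, at 1.93 (adjusted p = 0.0252). *Nek7*, an NLRP3 activator, had a log2 fold change of 0.54. *Gsdmd*, whose cleaved product forms the pore through which interleukin-1 beta leaves the cell, stood at 20.8, 13.5 and 21.4 CPM against 4.39, 8.92 and 9.58 (-1.28 on the log2 scale, adjusted p = 0.105). *Casp4*, which cleaves it, had a log2 fold change of -1.06 (adjusted p = 0.105). Of these, *Capn1*, *Casp4* and *Gsdmd* were called by the edgeR exact test and DESeq2, which called 7.46% and 9.34% of all tested genes.

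All 21 genes of the signalling chain behind the receptor were tested and none passed in the quasi-likelihood test, with 4 higher and 1 lower at an unadjusted p under 0.05, no larger a share than the 25.0% of all tested genes. *Map2k6*, a kinase that activates p38, stood at 21.4, 32.6 and 14.3 CPM in control and at 77.7, 59.1 and 55.0 in *Gp130* ecKO (1.49 on the log2 scale, SE 0.31, adjusted p = 0.0751 in the quasi-likelihood test). It was called without control 2 (1.86, adjusted p = 0.0217 in that test), by the edgeR exact test (0.00172) and by DESeq2 (0.000918). *Ikbkg* (0.68), *Peli1* (0.66) and *Traf6* (0.48) were the other three on the higher side. *Irak3*, an inhibitor of the pathway, had a log2 fold change of -1.23 (adjusted p = 0.111), and was called by DESeq2 (0.0177) but not by the edgeR exact test (0.0628).

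Among 23 textbook targets of interleukin-1, 18 were tested and none passed in the quasi-likelihood test, with 1 higher and 3 lower at an unadjusted p under 0.05, again no larger a share than the 25.0% of all tested genes. *Csf3*, which encodes the neutrophil growth factor G-CSF, stood at 0.61, 2.89 and 2.33 CPM in control and at 31.4, 32.6 and 11.9 in *Gp130* ecKO (3.71 on the log2 scale, SE 0.63, adjusted p = 0.0616 in the quasi-likelihood test). *Cxcl5*, a neutrophil attractant, had 118 counts over the 3 control uteri and none in *Gp130* ecKO, at least 43.3-fold lower against the floor of 3 counts over the group (31.8-fold without control 1), with an adjusted p of 0.0695 in the quasi-likelihood test. It passed the filter through the control group alone, so a difference was built into its entry to the test. *Mmp3*, a matrix protease, and *Nos2*, the inducible nitric oxide synthase, had log2 fold changes of -1.74 and -1.57 (adjusted p = 0.112 and 0.197). Without control 2, *Csf3* and *Cxcl5* were called in that test (adjusted p = 0.0299 and 0.0270). The edgeR exact test and DESeq2 both called *Csf3* (1.62e-05 and 1.29e-07), *Cxcl5* (2.95e-07 and 5.91e-06) and *Mmp3* (0.0457 and 0.0221). For *Nos2* the log2 fold change was -2.40 without *Gp130* ecKO 2 and -1.10 without *Gp130* ecKO 1. Targets of the same cytokine thus lay on both sides, and the median log2 fold change of the 18 was -0.92.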

How the data were processed

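RNA of 6 uteri was sequenced as strand-specific poly(A) libraries with 75 bp single reads. The authors trimmed reads with fastp 0.23.2, removed ribosomal reads, aligned to GRCm39 with STAR 2.7.10a and quantified with RSEM 1.3.3, per the labels and the methods of the study. The deposited tables hold the expected count and the TPM of 56748 genes, and the length RSEM used, another measure the authors deposited. The annotation version and the strand setting of counting are not given in the sources used here.

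Expected counts were rounded, filtered with filterByExpr, TMM-scaled and fitted with edgeR 4.0.16 (quasi-likelihood test, 3 against 3, Benjamini-Hochberg adjustment over 16605 genes) in R 4.3.3. A gene was called at an adjusted p under 0.05 and more than 2-fold. SE and 95% intervals come from this fit. CPM values are TMM-scaled, and the prior count of 0.5 enters only log2(CPM + 0.5). Symbols came from GENCODE M39 (56017 of 56748 IDs). The members and lists were chosen with earlier results of these data known. Named genes were all 10 members, in each other list those at an unadjusted p under 0.05 (at most 6), *Il36g*, *Il1rl2*, and the 5 nearest patterns to *Il1a* and *Il1b*. DESeq2 1.42.0, other edgeR tests, scalings, filters and thresholds, a replicate block and each uterus left out were alternatives. On simulated data for this comparison (16605 genes, 200 changed 4-fold) the test called 121 of the changed genes and 9 unchanged ones, the edgeR exact test 162 and 40, and DESeq2 167 and 56. The changed genes were drawn from the better counted ones, and no simulated uterus was made to stand apart. These numbers thus do not cover genes with few counts or a uterus such as control 2. Library totals were 13960748 to 25906443 counts, and intervals on counts cover counting error only.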

Additional observations from a re-analysis of the deposited data

How the results depend on the processing

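The test decided the number of calls more than the scaling did. Over all genes, 26 calls became 1239 with the edgeR exact test, 1317 with the likelihood ratio test, 1546 with DESeq2, 7 with the legacy quasi-likelihood form, 105 without a filter, 856 at an adjusted p under 0.10, and 971 with the exact test and no filter, an alternative chosen after seeing the data, as were the overlap counts with 1 uterus left out. Leaving out 1 uterus gave 1 to 897 calls, the highest without control 2. Members called went from 0 to 3 with the exact test, the likelihood ratio test, DESeq2 and the exact test without a filter. The 3 differed in the exact test without a filter, where *Il33* was not called (adjusted p = 0.102) and *Il1a* was (0.0379). Members called went to 1 at an adjusted p under 0.10 (*Il1rap*). They lay between 0 and 1 with 1 uterus left out (*Il1a* without control 2, where it enters the filtered fit). Further family genes called were 1 in the exact test without a filter, and 0 to 1 with 1 uterus left out (*Il36g* without control 2, likewise). Processing genes called were 3 with the exact test, the likelihood ratio test and DESeq2, 1 at an adjusted p under 0.10, 1 in the exact test without a filter, and 0 to 1 with 1 uterus left out. Signalling genes called were 1 with the exact and likelihood ratio tests, 2 with DESeq2, 1 at an adjusted p under 0.10, 1 in the exact test without a filter, and 0 to 1 with 1 uterus left out. Target genes called were 3 with the exact test, the likelihood ratio test and DESeq2, 1 without a filter, 2 at an adjusted p under 0.10, 2 in the exact test without a filter, and 0 to 2 with 1 uterus left out. The log2 fold change turned sign for *Il1r1* (-0.01 without control 1, -0.12 without *Gp130* ecKO 1, up to 0.38 without *Gp130* ecKO 3) and *Il1rl2* (0.21 without control 3, 0.05 without *Gp130* ecKO 1, down to -0.49 without *Gp130* ecKO 3). The cause was not tested. The replicate numbers did not pair the uteri (correlations of deviations 0.10, 0.06 and -0.18). With the replicate block, 6 genes were called in all, and no gene of the lists. Depth limits *Il1a*, *Il1b*, *Il18*, *Il1rn*, *Il1rl1* and *Il36g*, which had at most 96.4 expected counts in any uterus.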
